A study of Homo sapiens with 6 samples.

Results

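Hypoxia sensors and hypoxia-induced genes were followed in MDA231-LM2 cells, a lung-metastatic derivative of the triple-negative human breast cancer line MDA-MB-231, grown as oncospheres or as a monolayer. The set held 41 genes chosen by name, 8 that form the oxygen-sensing machinery of the hypoxia-inducible factors (HIF) and 33 listed as induced by hypoxia. All 41 were measured among 19775 genes. Oncospheres (3 biological replicates) were floating clusters kept for 4 days on ultra-low adhesive plates in serum-free HuMEC medium, to which 2% B27, EGF at 20 ng/ml, bFGF at 10 ng/ml and insulin at 5 μg/ml had been added. Monolayer cultures (3 biological replicates) of the same line were attached cells in DMEM with 10% serum, harvested 48 h after the medium was renewed. Attachment, medium, serum, growth factors and time differed together between the groups and cannot be told apart. The sources used here give no oxygen tension for either culture.

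HIF is a pair of proteins, an oxygen-regulated alpha subunit (HIF1A or EPAS1, also known as HIF-2α) and the stable partner ARNT. When oxygen is present, the prolyl hydroxylases EGLN1, EGLN2 and EGLN3 modify the alpha subunit, VHL then recruits it to a ubiquitin ligase, and HIF1AN blocks its contact with coactivators. When oxygen is scarce, the alpha subunit escapes, enters the nucleus and binds short DNA elements with the core ACGTG or GCGTG near genes for blood vessel growth, glycolysis, collagen maturation and mitochondrial turnover. Most of this control acts on protein and is not seen by an RNA measurement. In breast tumors, hypoxia and HIF targets such as LOX and VEGFA are known for their ties to metastasis.

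The intensities came from Affymetrix U133 Plus 2.0 arrays, in which each gene is read by 1 or more probe sets. An intensity is a relative measure of RNA, so that levels are compared between arrays and not from gene to gene. A gene's place against the array medians or the low end of the scale is given as a rough guide. A gene was represented by its brightest probe set with a single symbol, and differences with an adjusted p under 0.05 were called (limma, Benjamini-Hochberg over 54613 probe sets). Array medians lay between 112.8 and 114.2. The mesenchymal marker VIM averaged 20819 in oncospheres and 20145 in monolayer, whereas CDH1 (70.7 in oncospheres and 80.2 in monolayer) and the progesterone receptor PGR (73.2 in oncospheres and 72.7 in monolayer) stayed below the array medians. EPCAM lay above the array medians, with 444 in oncospheres and 561 in monolayer. So did ERBB2 (399 in oncospheres and 342 in monolayer) and, by little, the estrogen receptor ESR1 (125 in oncospheres and 130 in monolayer). CD44 averaged 6792 in oncospheres and 5407 in monolayer. SPARC rose 2.86-fold, from 3140 in monolayer to 8745 in oncospheres. Ratios of the 3′ to the 5′ control probe sets, a sign of RNA integrity, lay between 0.953 and 0.964 for GAPDH in oncospheres and between 0.92 and 0.989 in monolayer. In bulk RNA, a change in few cells and a smaller change in every cell cannot be told apart.

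Sequences that match the core ACGTG are shown first, since HIF is a known regulator of genes induced by hypoxia. Sites were found by matching bases alone, and whether HIF binds them was not tested. Promoters of 300 bases, 250 before and 50 after the RefSeq start (GRCh38.p14), were found for 33 of the 41 members and not for VHL, VEGFA, STC1, LOXL2, BNIP3L, NDRG1, HILPDA and SPAG4. The windows below are a selection of the ACGTG sites before the start (BHLHE40 has a further site that is not shown), read on either strand and set in capitals, in genes that rose at least 2-fold (BHLHE40, AK4 and P4HA1), in MAFF, which fell, and in CITED2, which was not called. CACGTG reads as ACGTG on both strands and counts as 1 site.
BHLHE40, chr3:4979187-4979215, + strand: tccaaCACGTGagactcatgtgatgaagc
BHLHE40, chr3:4979245-4979285, + strand: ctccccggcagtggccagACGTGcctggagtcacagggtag
P4HA1, chr10:73096930-73096970, - strand: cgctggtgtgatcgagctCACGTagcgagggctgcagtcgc
AK4, chr1:65147441-65147482, + strand: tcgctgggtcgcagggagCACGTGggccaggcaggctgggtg
CITED2, chr6:139374778-139374819, - strand: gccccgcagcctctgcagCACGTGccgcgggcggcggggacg
MAFF, chr22:38201780-38201821, + strand: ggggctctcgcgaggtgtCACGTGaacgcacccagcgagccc

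ACGTG was present in 19 of the 33 member promoters (57.6%), against 23.7% of 15843 protein-coding promoters of the same length. By role, it was present in 17 of 26 promoters of induced genes and in 2 of 7 of the machinery. GCGTG was found in 48.5% of member promoters and 44.1% of all. Among members called higher, 13 of 22 had the core ACGTG (59.1%), and among the others 6 of 11 (54.5%). Induced genes with ACGTG had a median log2 change of 0.53 and those without it 1.03. TMEM45A and P4HA2, which were among the largest increases, had neither core in this window.

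Most members carried more RNA in oncospheres. Of the 41 genes, 28 rose, 2 fell and 11 were not called, whereas 17.3% of all genes rose and 17.5% fell (34.9% called in either direction). A rise of at least 2-fold was found for 12 members, against 2.79% of all genes, and no member fell by as much (1.26% of all genes). In 29 members every oncosphere value exceeded every monolayer value, and in 3 the reverse held, where the background was 22.3% above and 24.6% below. The median log2 change was 0.70 for the induced genes, 0.35 for the machinery and -0.02 for all genes. The members were named with earlier results of these arrays known, so that these counts describe the set and test nothing about it.

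**Figure D1:**
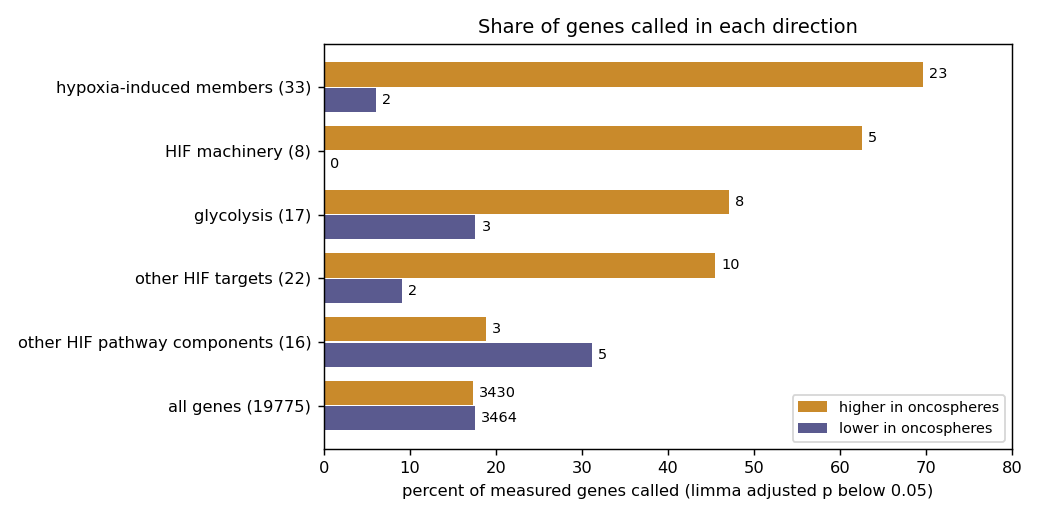
Share of measured genes called higher (orange) or lower (violet) in oncospheres, in percent, for each gene group, with the number of genes measured in parentheses and the number called beside each bar. Of the induced genes 69.7% rose and 6.06% fell, against 17.3% and 17.5% of all genes.

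Among the HIF subunits, the large increase was in EPAS1. Its intensities were 4271, 3926 and 4403 in oncospheres, against 2082, 1268 and 1570 in monolayer, a 2.61-fold rise (log2 change 1.38, SE 0.16, adjusted p = 0.000358, limma). The groups did not overlap, and the monolayer arrays varied more among themselves than the oncosphere arrays. The dimmer EPAS1 probe sets, near the array medians or below them, missed the threshold (log2 change 0.04 for the brighter and 0.09 for the dimmer of them). The mean of all EPAS1 probe sets rose by 0.51.

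HIF1A read 9459, 9104 and 9040 in oncospheres, against 8302, 8159 and 8275 in monolayer. Every oncosphere array lay above every monolayer array, but the difference was small (log2 change 0.16, SE 0.05) and the adjusted p was 0.0592 (limma). HIF1A passed the threshold in 7 of 18 alternative settings, with adjusted p from 0.00905 to 0.179. For the partner ARNT, the intensities were 321, 340 and 338 in oncospheres and 258, 285 and 284 in monolayer (log2 change 0.27, SE 0.06, adjusted p = 0.0125). ARNT has 7 probe sets, of which 3 were called higher and 4 were not called, 2 of them with log2 changes of -0.15, and the mean of all 7 was not called (log2 change 0.13, adjusted p = 0.0926).

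The oxygen sensors EGLN1 and EGLN3 and the HIF-degrading factor VHL rose, and EGLN2 and HIF1AN were not called. EGLN1, the main prolyl hydroxylase acting on HIF1A and itself a HIF target, had intensities of 2423, 2210 and 2424 in oncospheres, against 1680, 1701 and 1699 in monolayer (log2 change 0.47, SE 0.06, adjusted p = 0.000591). The 3 dimmer EGLN1 probe sets had log2 changes from -0.10 to 0.02, and the gene was not called on the mean of all of its probe sets (log2 change 0.08, adjusted p = 0.396). EGLN3, the prolyl hydroxylase most strongly induced by hypoxia in many cells, was at 218, 176 and 218 in oncospheres and at 137, 139 and 142 in monolayer (log2 change 0.54, SE 0.09, adjusted p = 0.00233). Both EGLN3 probe sets rose, and as the gene lies near the low end of the scale, the log2 change was 0.89 when a background level was subtracted. VHL had intensities of 387, 371 and 380 in oncospheres and 279, 263 and 307 in monolayer (log2 change 0.42, SE 0.07, adjusted p = 0.00225). Neither EGLN3 nor VHL overlapped between the groups, but the other, dim VHL probe set was not called (log2 change 0.11).

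EGLN2 stayed below the array medians on every array, at 82.5, 85.7 and 77.8 in oncospheres and 84.0, 94.6 and 86.4 in monolayer (adjusted p = 0.32). The asparagine hydroxylase HIF1AN was at 485, 394 and 508 in oncospheres and at 409, 368 and 434 in monolayer (log2 change 0.19, SE 0.11, adjusted p = 0.246). Here the groups overlapped, with oncosphere 2 among the monolayer values, and without that array the adjusted p was 0.0355 (log2 change 0.30). That was the 1 of 18 alternatives in which HIF1AN was called, and the adjusted p reached 0.534 in another (limma). The dimmer HIF1AN probe sets were not called (log2 changes 0.01 and 0.15).

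**Figure D2:**
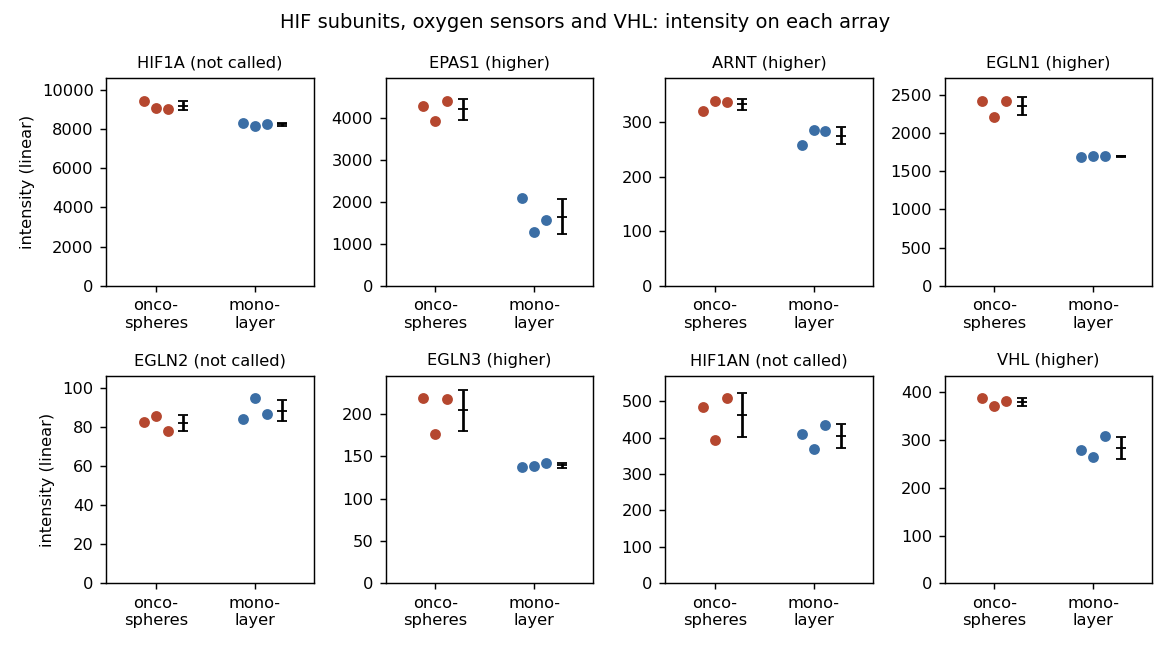
Intensity on a linear scale of the 8 genes of the HIF machinery on each of 3 oncosphere (red) and 3 monolayer (blue) arrays, with the mean and SD as black bars. EPAS1 shows the widest gap (2.61-fold), whereas HIF1A differs little and EGLN2 and HIF1AN overlap.

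The nuclear regulators split by direction. BHLHE40, a transcriptional repressor of the basic helix-loop-helix family, was at 1687, 2153 and 1697 in oncospheres, against 527, 429 and 583 in monolayer, a 3.60-fold rise (log2 change 1.85, SE 0.13, adjusted p = 3.65e-05). KDM3A, a histone demethylase, was at 1670, 1389 and 1568 in oncospheres and at 522, 609 and 713 in monolayer (2.52-fold, adjusted p = 9.74e-05). The ankyrin-repeat protein gene ANKRD37 rose 1.75-fold, without overlap between groups. MAFF, a small MAF transcription factor, fell. It had 1901, 1424 and 1772 in oncospheres, against 2752, 2313 and 2795 in monolayer (log2 change -0.63, SE 0.12, adjusted p = 0.00468), and its second probe set also fell. CITED2, which competes with HIF for the coactivators CREBBP and EP300, had 962, 746 and 888 in oncospheres, against 1118, 998 and 1059 in monolayer. All oncosphere arrays of CITED2 lay below the monolayer arrays, with an adjusted p of 0.0542 (0.013 to 0.161 over 18 alternatives, called lower in 5). A dimmer CITED2 probe set was called lower (log2 change -0.47, adjusted p = 0.0443), and the dimmest was not called (log2 change 0.03).

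Secreted factors did not move as a block. VEGFA, the main angiogenic growth factor, was at 7044, 6872 and 6754 in oncospheres, against 2855, 2749 and 2916 in monolayer, 2.43-fold higher (log2 change 1.28, SE 0.06, adjusted p = 3.78e-06). The 3 oncosphere arrays were close to one another, and all 4 VEGFA probe sets rose, by log2 changes of 1.25 to 1.54. Its relative VEGFC, a growth factor of lymphatic vessels, overlapped between groups (930, 912 and 906 in oncospheres and 978, 927 and 998 in monolayer, adjusted p = 0.379). ADM, which encodes the vasodilator peptide adrenomedullin and is a commonly used hypoxia marker, fell: it had 4159, 3942 and 4302 in oncospheres, against 5034, 5366 and 4855 in monolayer (log2 change -0.30, SE 0.06, adjusted p = 0.00895). No array overlapped, and ADM was called lower in all 18 alternatives.

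STC1, a secreted glycoprotein, had the largest SE of the members, at 5344, 2980 and 5657 in oncospheres and 2330, 1766 and 3036 in monolayer (log2 change 0.95, SE 0.27, adjusted p = 0.0295). Oncosphere 2 lay below monolayer 3, and the change was 1.25 without oncosphere 2. The call was lost without oncosphere 1 (adjusted p = 0.0977), oncosphere 3 (0.0953), monolayer 1 (0.0802) or monolayer 2 (0.1), and with a background level subtracted (0.141). The dimmest STC1 probe set rose 2.30-fold without overlap (adjusted p = 0.0032), and the remaining one was not called (log2 change 0.97, adjusted p = 0.0638). The paralog STC2 lay at or below the array medians and its groups overlapped, with 102, 105 and 110 in oncospheres and 113, 102 and 103 in monolayer. ANG, which encodes the ribonuclease angiogenin, rose 1.25-fold at low intensity (161, 168 and 178 in oncospheres, against 147, 121 and 141 in monolayer, adjusted p = 0.0228), a call lost without oncosphere 2 (0.05), oncosphere 3 (0.0781) or monolayer 2 (0.0532), and with a background level subtracted (0.0877).

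Of the enzymes that mature collagen, 4 of 5 were called higher, against 17.3% of all genes, and the call of PLOD2 held in 9 of 17 alternatives. P4HA2 and P4HA1 encode catalytic subunits of the prolyl hydroxylase that stabilizes the collagen helix. P4HA2 was at 2286, 1759 and 2267 in oncospheres, against 683, 663 and 668 in monolayer, a 3.11-fold rise (log2 change 1.64, SE 0.10, adjusted p = 1.79e-05). P4HA1 had 5955, 5151 and 5771 in oncospheres and 1921, 1892 and 2020.0 in monolayer, 2.89-fold higher (log2 change 1.53, SE 0.07, adjusted p = 5.16e-06). For both, oncosphere 2 was the lowest of its group and still more than 2-fold above the highest monolayer array.

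LOX, the lysyl oxidase that cross-links collagen outside the cell, was at 1464, 1352 and 1478 in oncospheres, against 741, 699 and 747 in monolayer (1.96-fold, adjusted p = 2.01e-05), and its other probe sets rose 2.08-fold and 2.83-fold. The lysyl hydroxylase PLOD2 rose by 0.24 on the log2 scale (adjusted p = 0.0407). Its second probe set was not called (log2 change 0.01), and the call was lost without oncosphere 1 (adjusted p = 0.126), oncosphere 3 (0.0751), monolayer 1 (0.116) or monolayer 3 (0.12). It was also lost with a background level subtracted (0.0814) and on the mean of both probe sets (log2 change 0.13, adjusted p = 0.156). The LOX relative LOXL2 was not called (2334, 2042 and 2089 in oncospheres and 2115, 1752 and 1829 in monolayer, adjusted p = 0.171), and the groups overlapped.

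Regulators of glucose use and the adenylate kinase gene AK4 rose, while glycogen genes were not called. PFKFB3, whose product makes the activator of phosphofructokinase and so speeds glycolysis, was at 3949, 3117 and 3752 in oncospheres, against 1339, 1428 and 1508 in monolayer (2.52-fold, adjusted p = 3.64e-05). AK4, a mitochondrial adenylate kinase, was at 2393, 2351 and 2485 in oncospheres and at 1022, 1165 and 1208 in monolayer (2.13-fold, adjusted p = 2.73e-05), and all 4 of its probe sets rose. PFKFB4, of the same family as PFKFB3, rose 2.05-fold. PDK1, a kinase that shuts pyruvate out of the mitochondrial citrate cycle by inhibiting pyruvate dehydrogenase, rose 1.95-fold. These 4 genes and the glycogen gene PPP1R3C had every oncosphere array above every monolayer array, as did 22.3% of all genes. The glycogen branching enzyme GBE1 (log2 change 0.07, SE 0.06, adjusted p = 0.417) and PPP1R3C, which brings a phosphatase to glycogen (log2 change 0.15, SE 0.06, adjusted p = 0.109), were not called.

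The 3 mitochondrial genes all rose, by less than 2-fold, against 17.3% of all genes that rose. BNIP3L and BNIP3 encode receptors that mark mitochondria for removal by autophagy. BNIP3L was at 4766, 4203 and 4523 in oncospheres, against 3249, 2988 and 3006 in monolayer (1.46-fold, adjusted p = 0.000582). BNIP3 was at 7374, 6204 and 7386 in oncospheres and at 4736, 4840.0 and 4863 in monolayer (1.45-fold, adjusted p = 0.00127). Both probe sets of each gene rose. FAM162A, a mitochondrial protein linked to cell death under hypoxia, rose 1.20-fold, and 4 of its 5 probe sets were called.

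The largest increases of the set were in NDRG1 and TMEM45A. NDRG1, a stress-responsive gene that is strongly induced by low oxygen, was at 10353, 11009 and 12736 in oncospheres, against 1729, 1632 and 1973 in monolayer (6.39-fold, log2 change 2.68, SE 0.10, adjusted p = 2.33e-06). TMEM45A, a membrane protein, was at 1755, 1394 and 1785 in oncospheres and at 333, 389 and 355 in monolayer (4.56-fold, log2 change 2.19, SE 0.11, adjusted p = 6.22e-06). In both genes the lowest oncosphere array was more than 3-fold above the highest monolayer array.

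SPAG4, a protein of the nuclear envelope, rose 2.22-fold, with 414, 394 and 534 in oncospheres and 194, 197 and 209 in monolayer. DDIT4, an inhibitor of mTOR signaling, rose 1.99-fold with little spread, at 7417, 7548 and 7238 in oncospheres and 3680, 3757 and 3711 in monolayer. WSB1, a substrate receptor of a ubiquitin ligase, rose 1.63-fold, and 4 of its 5 probe sets were called. ERO1A, an oxidase that forms disulfide bonds in the endoplasmic reticulum, rose 1.48-fold with all 3 of its probe sets. HILPDA, a lipid droplet protein that is another frequent hypoxia marker, overlapped between groups at 463, 403 and 458 in oncospheres and 388, 458 and 381 in monolayer (adjusted p = 0.438). The kinase RIOK3 also overlapped (log2 change 0.15, SE 0.12, adjusted p = 0.445). Among the alternatives, RIOK3 was called higher only on the mean of its 5 probe sets (log2 change 0.20, adjusted p = 0.0207). Of these probe sets, 1 dimmer one rose without overlap (log2 change 0.47, adjusted p = 0.00129, limma) and 4 were not called.

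**Figure D3:**
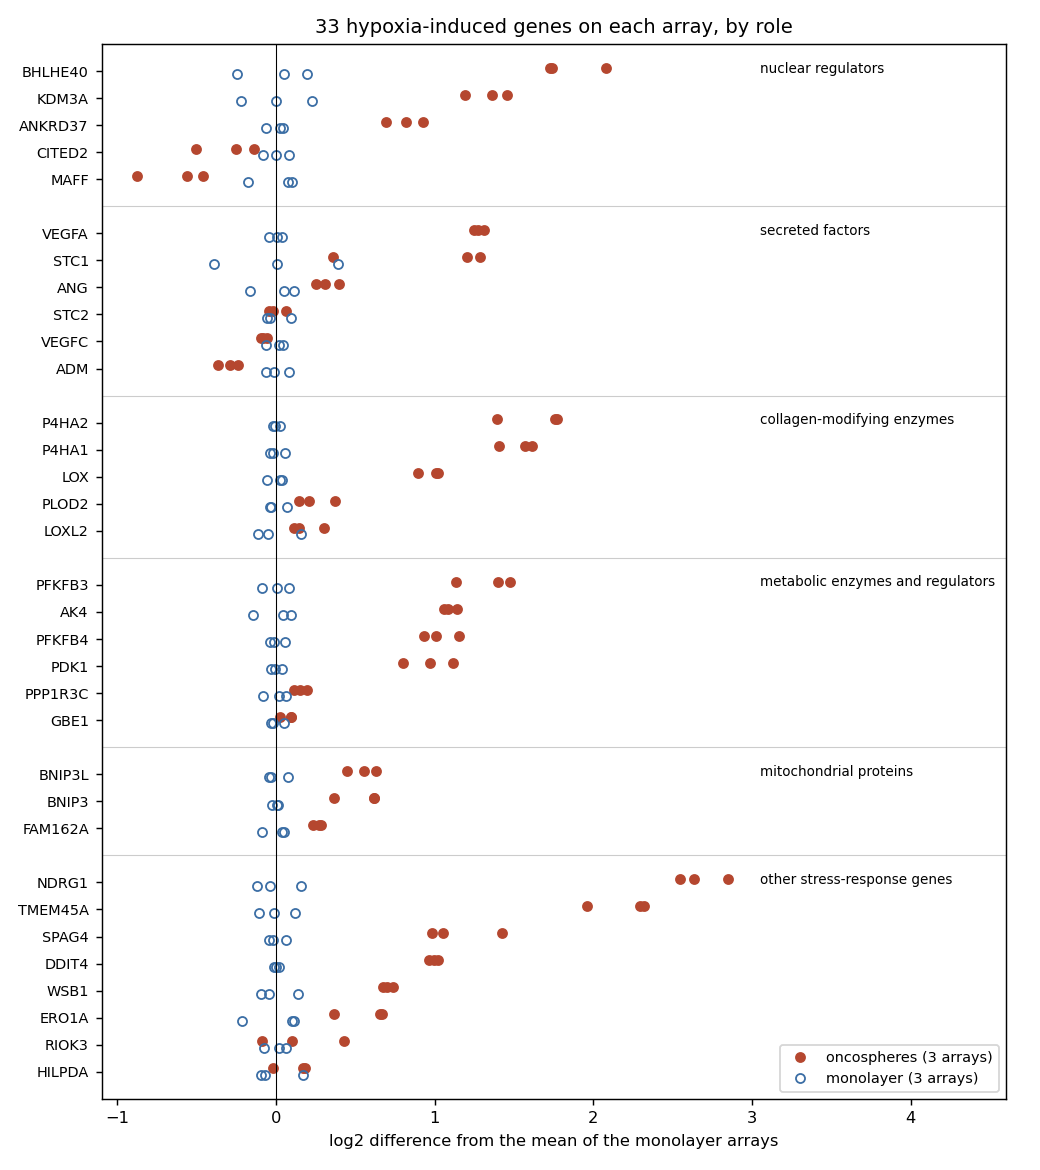
Log2 difference of each array from the mean of the monolayer arrays for the 33 hypoxia-induced genes, ordered by role and then by change, with 3 oncosphere arrays (filled red) and 3 monolayer arrays (open blue) per gene. NDRG1 and TMEM45A lie farthest to the right, whereas MAFF, ADM and CITED2 lie left of all their monolayer points.

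The change was also read on each oncosphere array. The median difference from the monolayer mean was 0.74, 0.45 and 0.67 on the log2 scale for the induced genes on oncosphere arrays 1, 2 and 3, and 0.36, 0.32 and 0.38 for the machinery. Of the 23 induced genes that rose, oncosphere 2 had the smallest change in 14 (60.9%), close to the 56.2% of all genes called higher, and the median differences of these 23 genes were 1.08, 0.98 and 1.02 on the 3 arrays. Both members that fell, MAFF and ADM, changed most on oncosphere 2, which had the largest change in 23.8% of all genes called lower. Of the 23 induced genes that rose, BHLHE40, DDIT4 and FAM162A had their largest change on oncosphere 2 (13%, against 25.3% of all genes called higher). Without oncosphere 2, 28 members were called higher and 2 lower, with no share of all genes given for that fit.

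Probe sets of the same gene gave no opposing calls. The members had 101 probe sets, of which 55 were called higher, 4 lower and 42 not called. Of the 30 members with more than 1 probe set, none had probe sets called in both directions, and 10 had every probe set called the same way. No share over all probe sets is given beside these counts, so they describe the members alone. The size differed more: the dimmer probe sets of P4HA1 (log2 change -0.14), KDM3A (0.15) and ANKRD37 (-0.08), all below the array medians, were not called.

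**Figure D4:**
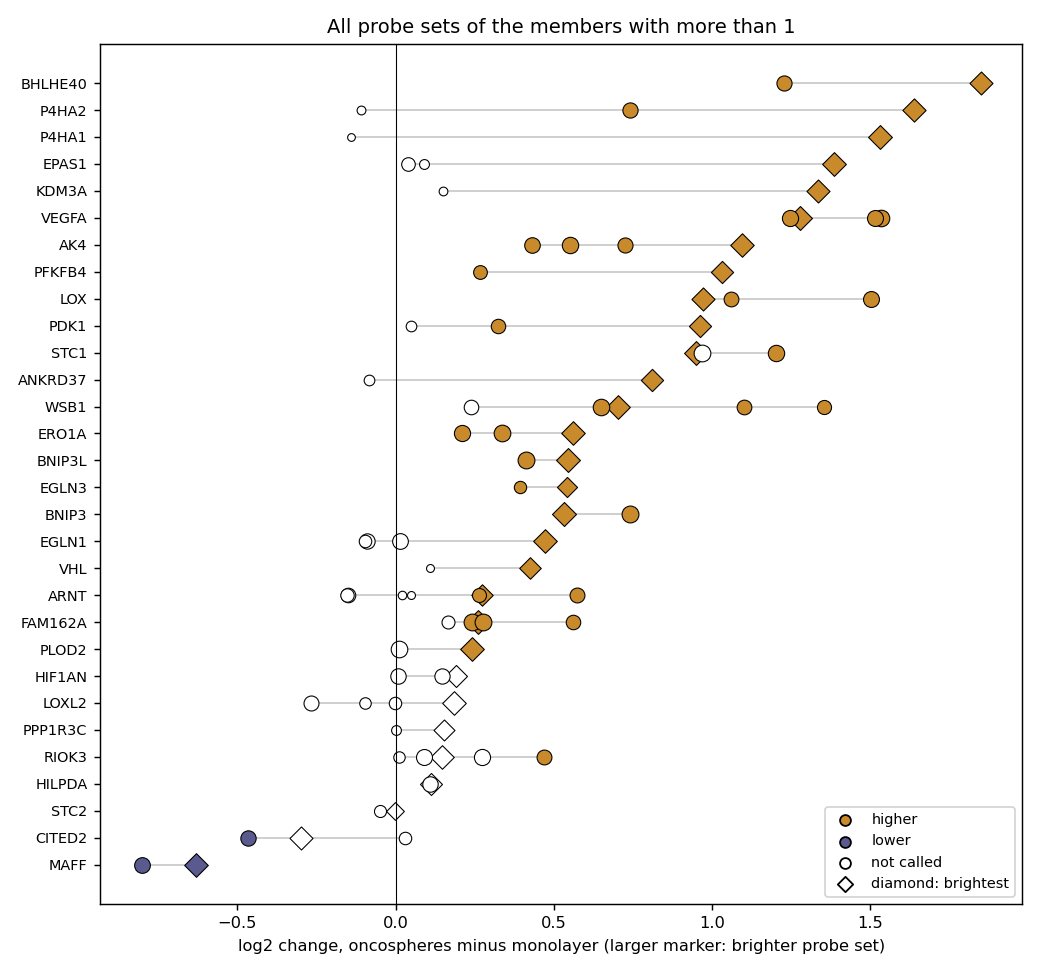
Log2 change (oncospheres minus monolayer) of every probe set of the 30 members with more than 1, with diamonds for the brightest probe set, marker size growing with brightness and fill showing the call. VEGFA, LOX and BHLHE40 hold together on the right, whereas P4HA1, EPAS1 and KDM3A rest on 1 bright probe set.

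Other genes of the pathway were read from 3 further lists, to be set against the 17.3% of all genes that rose and the 17.5% that fell. Of the glucose transporters and glycolytic enzymes, 8 of 17 measured rose (47.1%), 3 fell (17.6%, near the share of all genes) and 6 were not called, with a median log2 change of 0.14. The aldolase ALDOC rose 8.70-fold, with an intensity of 1915 ± 28.6 in oncospheres and 220.2 ± 7.87 in monolayer (SD, n = 3 each). The glucose transporter SLC2A3 rose 2.45-fold and the enolase ENO2 1.77-fold. SLC2A1, the transporter often read as a HIF target, and HK2 were among the 3 that fell, by 0.58 and 0.69 on the log2 scale, and HK1 was the other. All 3 were named after their values were seen.

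Of further HIF targets, 10 of 22 measured rose (45.5%, against 17.3% of all genes), 2 fell (9.09%, against 17.5%) and 10 were not called, with a median log2 change of 0.37. CA12, a carbonic anhydrase, averaged 5927 ± 320 in oncospheres and 546 ± 30.2 in monolayer (SD, n = 3 each), and IGFBP3, which binds insulin-like growth factors, rose 4.39-fold and ANGPTL4 4.19-fold. The transferrin receptor TFRC and ZNF395 fell, TFRC by 1.34 on the log2 scale, and were likewise named after their values were seen. Further components of the HIF pathway (stabilizers, coactivators, subunits of the VHL ligase) numbered 16, of which 3 rose (18.8%, near the 17.3% of all genes), 5 fell (31.2%, against 17.5%) and 8 were not called, with a median log2 change of -0.09. P4HTM, a membrane-bound prolyl hydroxylase, rose 2.27-fold and OS9, a lectin of the endoplasmic reticulum that has been tied to HIF turnover, 1.98-fold. ARNT2, a relative of ARNT, fell by 0.72. The probe sets of CA9 and SLC16A3 were not analysed here.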

How the data were processed

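Per probe set, the deposited intensities were linear values. The study's methods give RMA (robust multi-array average), which usually yields log2 values, and whether the authors rescaled or floored the intensities afterwards could not be settled, which bears on the printed levels and folds. The affy package is listed in the submitters' processing notes without a version. Log2 was taken before any fit. Labelled cRNA came from 100 ng of total RNA per array. After 62 control probe sets were left out, 54613 were tested, of which 41091 had 1 gene symbol, 1801 several and 11721 none. Symbols were updated through gene identifiers to the RefSeq table of GRCh38.p14. FUT11 was matched as POFUT4 through an older symbol. Oncospheres were compared with monolayer by limma 3.58.1 in R 4.3.3 (lmFit and eBayes), a form of the empirical Bayes test with Benjamini-Hochberg correction that the study used. The fit was tested on simulated arrays.

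With 3 cultures a group, all of 1 cell line, p-values reflect the variation among those cultures alone. The number of arrays limits the precision. The text names all 41 members and, of each further list, the 3 called genes with the largest change. Arrays are printed in full for the machinery and for the 2 called members with the largest change in each role group. Other members printed in full were chosen after their values were seen. Members and lists were chosen with earlier results of these data known, and no set test was run. Promoter sequences were those of RefSeq on GRCh38.p14.

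Normalization was varied by cyclic loess, median centring, repeated quantile normalization and subtraction of the 5th percentile of each array with a floor of 16. The test was varied by array weights, a replicate block, a robust prior with a trend on intensity, a stricter limit of 0.01 and adjustment over 1 probe set a gene. Gene values were varied by omitting dim probe sets, by omitting the _x_at and _s_at kinds, by averaging all probe sets of a gene, and by moving EGLN1 and EGLN3 to the induced genes. Each array was also left out in turn.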

Additional observations from a re-analysis of the deposited data

How the results depend on the processing

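Of the 41 members, 26 kept their result, called or not, and their direction under every alternative that measured them. These include EGLN2, GBE1, HILPDA, PPP1R3C and VEGFC, which were called in no setting. Of the 30 members called in the main fit, ARNT, EGLN1, VHL, ANG, STC1, P4HA1, PLOD2, FAM162A and WSB1 lost the call in at least 1 alternative. The share of all genes called is given for the main fit alone. The counts under other settings in this section therefore have no background beside them. Without _x_at and _s_at probe sets, which can match several transcripts, 29 members were measured and 15 rose, with 12 of 23 induced genes, 3 of 6 of the machinery, 4 glycolysis genes and 1 pathway component higher, and medians of 0.317 for the induced genes and 0.232 for the machinery. Members read only by such probe sets drop out there, NDRG1 and VEGFA among them, VHL (adjusted p = 0.288) and WSB1 (0.117) were not called, and P4HA1 was then read by its dim probe set (log2 change -0.14). With the mean of all probe sets, the median log2 change was 0.478 for the induced genes and 0.142 for the machinery, and that of LOXL2 was -0.045. The machinery median was 0.425 without dim probe sets and 0.42 with a background level subtracted. With EGLN1 and EGLN3 counted as induced, 3 of 6 of the machinery rose (median 0.232). At an adjusted p below 0.01, 5 glycolysis genes rose and 3 pathway components fell, and ARNT, ANG, STC1, PLOD2 and FAM162A were no longer called. Among further HIF targets, 1 gene fell (not 2) in that setting, with cyclic loess, with the intensity trend, with the mean of all probe sets, without _x_at and _s_at probe sets and with the background level subtracted. STC2, close to 0 throughout, turned sign to 0.003 with cyclic loess and 0.015 with the background subtracted; the cause was not tested for any of these.

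With each array left out in turn, 25 to 28 members rose and 2 to 3 fell, 20 to 22 of the induced genes and 5 to 6 of the machinery rose, and the medians ran from 0.655 to 0.753 for the induced genes and from 0.321 to 0.386 for the machinery. Further HIF targets that fell numbered 1 to 2 and pathway components 3 to 5, and the log2 change of STC2 ran from -0.032 to 0.046. With the replicate block, 27 members rose and 3 fell. PLOD2 was then not called (adjusted p = 0.0673) and CITED2 was called lower (0.0192). Deviations of same-numbered arrays correlated at 0.08, 0.111 and 0.098, and every array correlated best with its own number, a hint from the data and not the design. The median of all genes lay between -0.028 and -0.006 under the other normalizations and at 0 with the background level subtracted.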
